A study of Mus musculus with 50 samples.

Results

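The LGI genes Lgi1, Lgi2, Lgi3 and Lgi4 and the ADAM receptor genes Adam11, Adam22 and Adam23 were followed across 5 groups of mice. They were found by their symbols in the deposited signal table, which names 18120 symbols, and each of the 7 genes was represented by the probe with the highest mean signal over the 50 arrays. All 7 chosen probes passed the filter on low signal (above background on at least 9 arrays), as did 13324 of 25697 probes in all.

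Synaptosomes, the pinched-off nerve terminals of homogenized tissue, were prepared from frontal cortex of CD1 mice aged 17 to 21 days, and their total RNA was hybridized to bead arrays. Sod2 encodes the superoxide dismutase of mitochondria. Constitutive Sod2 knockouts received a salen manganese antioxidant at a low dose of 1 mg/kg (10 mice) or a high dose of 30 mg/kg (10 mice). Wild types were untreated (9 mice) or received the low dose (11 mice) or the high dose (10 mice). The labels name the compound EUK8 in the sample titles and EUK189 in the treatment field. No untreated knockouts were analysed here, so genotype and compound cannot be told apart in a comparison of knockouts with untreated wild types.

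LGI proteins are secreted proteins built of leucine-rich repeats and a propeller-shaped domain, and they bind ADAM11, ADAM22 and ADAM23, membrane proteins of the metalloprotease family that lack protease activity. LGI1, released by neurons, joins ADAM22 and ADAM23 across the synapse, and through the scaffold PSD-95 (Dlg4) this complex is tied to AMPA receptors and Kv1 potassium channels; mutations in human LGI1 cause an inherited temporal lobe epilepsy. LGI3 has been placed with ADAM23 near the nodes of myelinated axons, and LGI4 is best known as a glial product that Schwann cells need to form myelin.

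The 250 bases upstream of the start of Lgi1 and of Lgi2 are shown because both ligands were lower in low-dose knockouts than in untreated wild types. They come from RefSeq (GRCm38.p6), whose promoter table held 4 of the 7 genes (Lgi1, Lgi2, Adam22 and Adam23). Capitals mark the GC box (GGGCGG) and the C/EBP-ATF core (TGATGNAA), searched on both strands.
Lgi1, chr19:38264437-38264686, plus strand: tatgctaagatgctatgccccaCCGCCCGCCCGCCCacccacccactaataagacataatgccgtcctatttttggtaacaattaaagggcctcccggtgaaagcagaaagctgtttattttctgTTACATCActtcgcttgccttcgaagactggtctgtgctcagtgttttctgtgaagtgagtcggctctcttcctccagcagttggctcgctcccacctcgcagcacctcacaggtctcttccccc
Lgi2, chr5:52566307-52566556, minus strand: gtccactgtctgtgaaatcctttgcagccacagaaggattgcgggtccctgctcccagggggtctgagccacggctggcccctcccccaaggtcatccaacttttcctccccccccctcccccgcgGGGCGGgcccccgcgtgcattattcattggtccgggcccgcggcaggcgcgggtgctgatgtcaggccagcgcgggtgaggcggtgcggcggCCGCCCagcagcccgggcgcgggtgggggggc
The Lgi1 stretch had a GC content of 52.4% with 10 CpG sites, and the Lgi2 stretch one of 72.4% with 21. Lgi1 held 1 C/EBP-ATF core, which begins 125 bases before the start, and 3 GC boxes that overlap each other, while Lgi2 held 2 GC boxes. Among all 32851 promoters of the table, 3.5% held a C/EBP-ATF core and 32.7% a GC box in the same window. Of 11 motifs searched, the antioxidant response element core (TGACNNNGC, in 10.2% of promoters) and the TATA box (TATAAA, in 12.4%) had no match in these letters for any of the 4 genes. Lgi2 also held 1 CCAAT box (ATTGG, in 33.8% of promoters). Neither of the other two promoters held a match to any of the 11 motifs.

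Lgi4 was the gene with the clearest difference between groups. In low-dose knockouts its log2 level ranged from 5.81 to 6.88 with a median of 6.62 (mean 6.51 ± 0.36, SD, n = 10). In low-dose wild types it ranged from 7.03 to 7.76 with a median of 7.44 (mean 7.41 ± 0.25, SD, n = 11). In high-dose knockouts it ranged from 6.90 to 7.59 with a median of 7.19 (mean 7.25 ± 0.21, SD, n = 10). Every low-dose knockout therefore lay below every low-dose wild type and every high-dose knockout. The gap to the high-dose knockouts was narrow, from 6.88 to 6.90, and far under the SDs. The share of all probes that separate in this way is not given here. High-dose wild types ranged from 6.88 to 7.64 with a median of 7.15, and untreated wild types from 6.87 to 7.53 with a median of 7.35. The lowest untreated wild type fell inside the range of the low-dose knockouts. Ordered by mean, the groups ran from low-dose wild type through untreated wild type, high-dose knockout and high-dose wild type to low-dose knockout, and the last step alone exceeded the SD of both of its neighbours.

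At the low dose, Lgi4 was 1.91-fold lower in knockouts than in wild types (log2 change −0.93 ± 0.12, SE; adjusted p = 1.45e-07, limma). It was the 1 of 7 genes called, where 21.1% of all tested probes were called in that comparison. Lgi4 was also 1.69-fold higher in knockouts at the high dose than in knockouts at the low dose (log2 change 0.76 ± 0.12, SE; adjusted p = 1.01e-05), again 1 of 7 called beside 20.3% of probes. At the high dose the fitted change between knockouts and wild types was 0.00 ± 0.12 (SE). There 0 of 7 genes were called by limma beside 0.585% of probes, and 0 had an unadjusted p under 0.05 beside 11.3%. The difference between the knockout effects at the high and the low dose was 0.94 ± 0.17 (SE; adjusted p = 0.000725). That interaction was called for Lgi4 and for no other of the 7 genes, beside 2.99% of probes. On all 6 chips that carried both low-dose groups, Lgi4 was lower in the knockouts, by 0.54 to 1.17 on the log2 scale within a chip. The within-chip interaction was above 0 on all 6 chips that carried the 4 treated groups and ranged from 0.13 to 1.20.

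**Figure D1:**
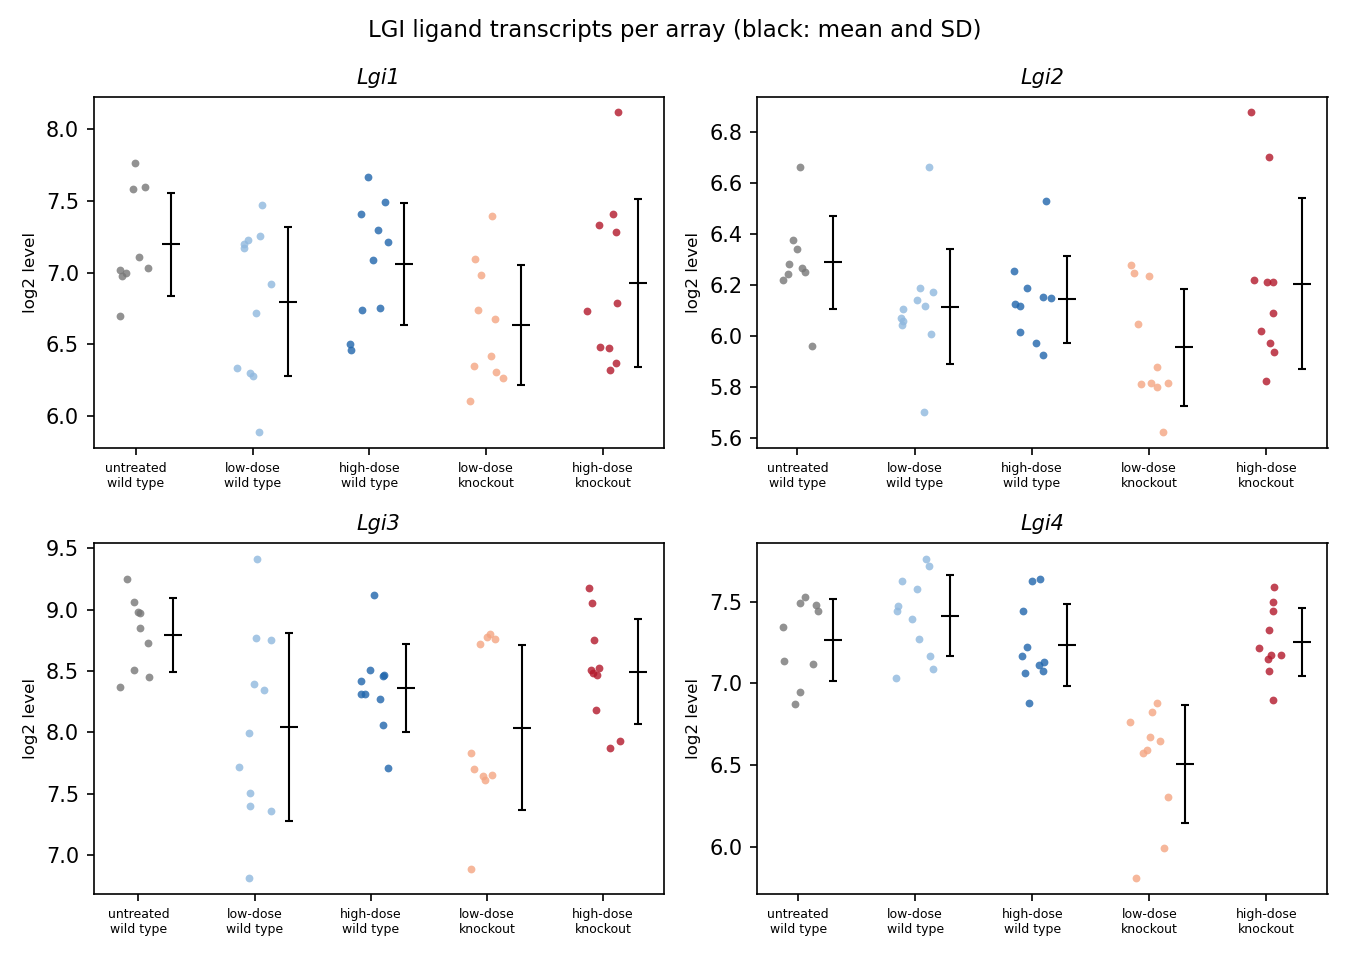
Log2 level (vertical axis, normalized signal) of Lgi1, Lgi2, Lgi3 and Lgi4 on each of the 50 arrays by group, with 1 point per mouse and black bars for the mean and SD. The 10 low-dose knockouts lie between 5.81 and 6.88 for Lgi4, below all 11 low-dose wild types, whereas for Lgi1, Lgi2 and Lgi3 all groups overlap.

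Lgi1 overlapped between every pair of groups. In untreated wild types its log2 level ranged from 6.70 to 7.77 with a median of 7.03 (mean 7.20 ± 0.36, SD, n = 9). In low-dose knockouts it ranged from 6.10 to 7.39 with a median of 6.55 (mean 6.63 ± 0.42, SD, n = 10). Among these 10 knockouts, 9 lay below the mean of the untreated wild types. The low-dose wild types had a median of 6.92 (5.89 to 7.47), the high-dose wild types one of 7.15 (6.46 to 7.67) and the high-dose knockouts one of 6.76 (6.32 to 8.12). Lgi1 was 1.47-fold lower in low-dose knockouts than in untreated wild types (log2 change −0.56 ± 0.21, SE; adjusted p = 0.0382, limma), and lower on 6 of 6 chips. Leaving out single arrays moved this adjusted p between 0.0157 and 0.0882, and the call was lost without any 1 of 11 arrays (low-dose knockout replicates 23, 25, 26, 27, 29 and 30 and untreated replicates 43, 46, 48, 49 and 51). The other Lgi1 probe of the array gave a change of −0.83 ± 0.20 (SE; adjusted p = 0.000978) in that comparison. Against low-dose wild types the Lgi1 change in low-dose knockouts was −0.16 ± 0.20 (SE; adjusted p = 0.634), which was within its error.

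Lgi3 had the widest spread of the ligands in both low-dose groups, while Lgi1 had it in the other 3. Untreated wild types ranged in log2 level from 8.37 to 9.25 with a median of 8.85 (mean 8.80 ± 0.30, SD, n = 9). Low-dose wild types ranged from 6.82 to 9.41 with a median of 7.99 (mean 8.04 ± 0.77, SD, n = 11), and low-dose knockouts from 6.89 to 8.80 with a median of 7.77 (mean 8.04 ± 0.67, SD, n = 10). Both low-dose groups thus reached well below the lowest untreated wild type and overlapped with all other groups. The high-dose groups lay between, at a median of 8.36 in wild types (7.71 to 9.12) and of 8.50 in knockouts (7.87 to 9.18). Lgi3 was 1.67-fold lower in low-dose knockouts than in untreated wild types (log2 change −0.74 ± 0.23, SE; adjusted p = 0.0108, limma), on 6 of 6 chips. The change from untreated to low-dose wild types had the same size, −0.74 ± 0.22 (SE), and was not called (adjusted p = 0.195), with 10 of 11 low-dose wild types below the untreated mean. Between the low-dose genotypes the Lgi3 change was 0.00 ± 0.22 (SE; adjusted p = 0.993).

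Lgi2, a further brain ligand of the family, had group SDs of 0.17 to 0.34 on the log2 scale, beside 0.36 to 0.58 for Lgi1. Its median was 6.27 in untreated wild types (5.96 to 6.66) and 5.85 in low-dose knockouts (5.63 to 6.28). All 10 low-dose knockouts lay below the untreated mean of 6.29, although the ranges overlap. Lgi2 was 1.26-fold lower in low-dose knockouts than in untreated wild types (log2 change −0.33 ± 0.11, SE; adjusted p = 0.0181, limma). Low-dose wild types had a median of 6.11, high-dose wild types of 6.14 and high-dose knockouts of 6.15.

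**Figure D2:**
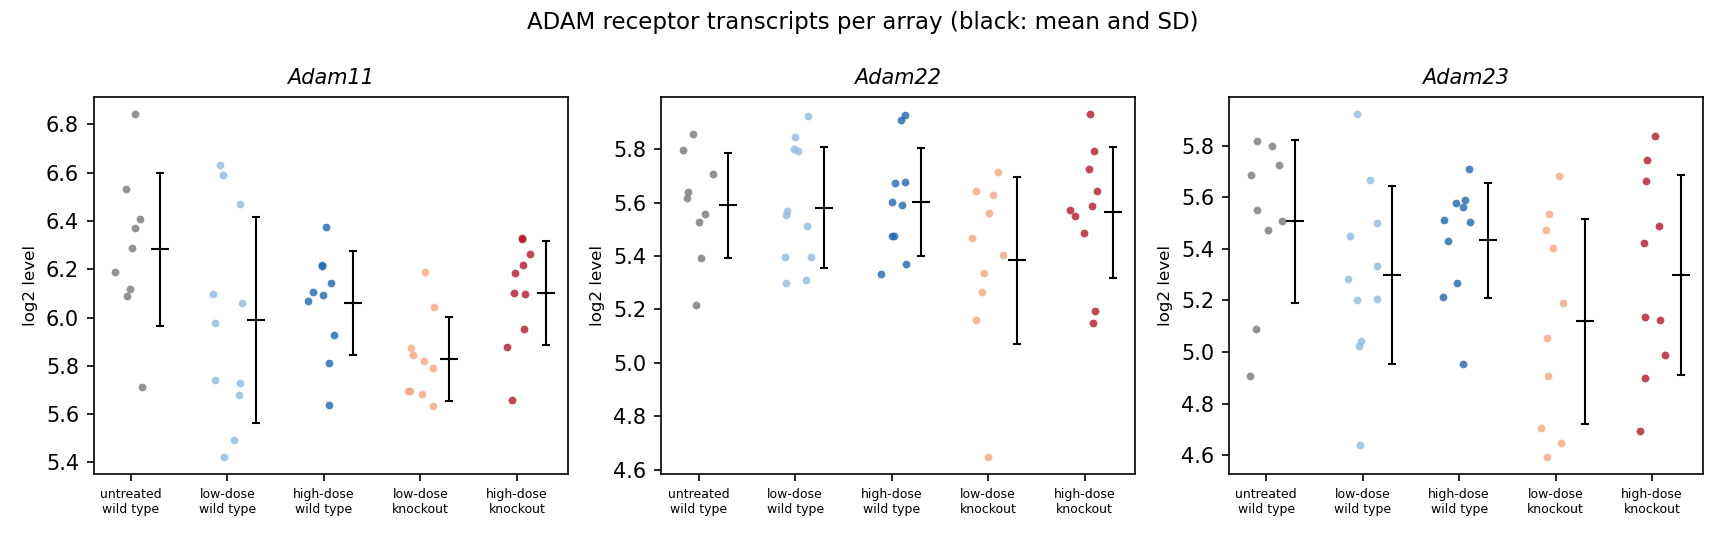
Log2 level (vertical axis, normalized signal) of Adam11, Adam22 and Adam23 on each array by group, with 1 point per mouse and black bars for the mean and SD. The groups overlap for all 3 receptors, the low-dose knockouts have the lowest means, and 1 low-dose knockout stands at 4.65 for Adam22.

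Among the receptors, Adam11, whose product is found mainly on neurons, was lower in low-dose knockouts than in untreated wild types. Its log2 level ranged from 5.64 to 6.19 with a median of 5.81 in low-dose knockouts (mean 5.83 ± 0.17, SD, n = 10) and from 5.71 to 6.85 with a median of 6.29 in untreated wild types (mean 6.28 ± 0.32, SD, n = 9). All 10 low-dose knockouts lay below the untreated mean, and the ranges overlap. The change was −0.46 ± 0.13 (SE; adjusted p = 0.00567, limma), or 1.37-fold lower, with a within-chip difference of −0.69 to −0.22 on 6 of 6 chips. Low-dose wild types spread from 5.42 to 6.63 (median 5.98), high-dose wild types from 5.64 to 6.38 (median 6.10) and high-dose knockouts from 5.66 to 6.33 (median 6.14). The chosen Adam11 probe carries no transcript description. An Adam11 probe that carries one was above background on 2 of 50 arrays, and another without one on 0. Neither was tested, so the Adam11 change rests on the chosen probe alone.

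Adam22, the receptor that anchors the LGI1 complex to PSD-95, showed no called difference. Untreated, low-dose and high-dose wild types had median log2 levels of 5.62, 5.55 and 5.60, and the knockouts of 5.44 (low dose) and 5.58 (high dose). Its SDs of 0.20 to 0.31 exceeded every step between neighbouring group means. The fitted change from untreated wild types to low-dose knockouts was −0.16 ± 0.12 (SE; adjusted p = 0.303), and the probe was above background on 46 of 50 arrays.

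Adam23, the presynaptic receptor of the LGI1 bridge, was the dimmest of the 7 and above background on 32 of 50 arrays. It was above background in 7 of 9 untreated, 7 of 11 low-dose and 9 of 10 high-dose wild types, and in 4 of 10 knockouts at the low and 5 of 10 at the high dose. Its median log2 level was 5.55 in untreated wild types (4.91 to 5.82) and 5.12 in low-dose knockouts (4.59 to 5.69), a change of −0.37 ± 0.15 (SE; adjusted p = 0.056) that was not called. It was called with any 1 of 10 single arrays left out, at a lowest adjusted p of 0.0169 without untreated replicate 47. A second, brighter probe is listed under AW046396, which the RefSeq gene table gives as an older name of Adam23. Like the chosen probes of Adam23, Lgi2 and Adam11, it carries no transcript description. It was picked up only after the values had been seen, and it was above background on all 50 arrays. With that probe the median was 9.63 in untreated wild types (8.84 to 10.39, n = 9), 8.28 in low-dose knockouts (7.49 to 9.77, n = 10) and 9.34 in high-dose knockouts (8.76 to 10.07, n = 10). Its change from untreated wild types to low-dose knockouts was −1.03 ± 0.26 (SE; adjusted p = 0.00217), and from low-dose to high-dose knockouts it was 0.86 ± 0.25 (SE; adjusted p = 0.0104). The levels on both probes correlated at r = 0.704 over the 50 arrays, and for knockouts over wild types at the high dose the fitted changes had opposite signs (−0.14 ± 0.14 and 0.16 ± 0.25, SE).

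Across the whole family, the comparison of low-dose knockouts with untreated wild types called 5 of 7 genes, all lower (Lgi1, Lgi2, Lgi3, Lgi4 and Adam11), where 32.5% of tested probes were called. The median change of the 7 genes was −0.46 on the log2 scale beside 0.01 for all probes. An unadjusted p under 0.05 was seen in 6 of 7, beside 41.3% of probes. The F test for any difference among the 5 groups called 3 of 7 genes beside 28.8% of probes, with adjusted p-values of 3.91e-07 for Lgi4, 0.02 for Lgi3 and 0.046 for Adam11. Of these calls, that of Lgi4 held in all 10 processing alternatives that allow this test and with each single array left out. The call of Adam11 was lost in 6 of the 10 alternatives and without any 1 of 28 arrays (adjusted p up to 0.0941, without untreated replicate 49), and that of Lgi3 was lost without the 5 dimmest arrays (adjusted p = 0.0539). Lgi2 (adjusted p = 0.102) was called with median scaling and without high-dose knockout replicate 9 or low-dose knockout replicate 22 or 24. Between knockouts at the high and the low dose all 7 fitted changes were above 0, with a median of 0.30 beside 0.00 for all probes. There 4 of 7 had an unadjusted p under 0.05, beside 31.9% of probes. Among them Lgi3 (0.52 ± 0.22, SE; adjusted p = 0.0824), Lgi2 (0.27 ± 0.10; adjusted p = 0.0623) and Adam11 (0.30 ± 0.12; adjusted p = 0.082) missed the adjusted threshold. Lgi2 passed it without high-dose knockout replicate 1 or 9 or low-dose knockout replicate 22, 24 or 31, Lgi3 without low-dose knockout replicate 22 or 24, and Adam11 without high-dose knockout replicate 9.

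For Lgi1, Lgi2, Lgi3, Adam11, Adam22 and Adam23, no step between neighbouring group means exceeded the larger SD of the pair. The remaining comparisons called Lgi4 or none of the 7. Low-dose knockouts against high-dose wild types called 1 of 7, Lgi4, which was lower (−0.76 ± 0.12, SE; adjusted p = 6.91e-06), beside 26.7% of probes. In that comparison 5 of 7 had an unadjusted p under 0.05, beside 37.3% of probes. High-dose knockouts against untreated wild types called 0 of 7 in limma beside 1.01% of probes, with 0 at an unadjusted p under 0.05 beside 15.2%. High-dose knockouts against low-dose wild types called 0 of 7 beside 1.22%, with 1 unadjusted beside 13.7%. The 3 comparisons among wild types each called 0 of 7 beside 0% of probes. At an unadjusted p under 0.05 they held 2 of 7 for low dose over untreated, 0 for high dose over untreated and 0 for high over low dose. The shares of all probes there were 13.7%, 6.73% and 3.92%.

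**Figure D3:**
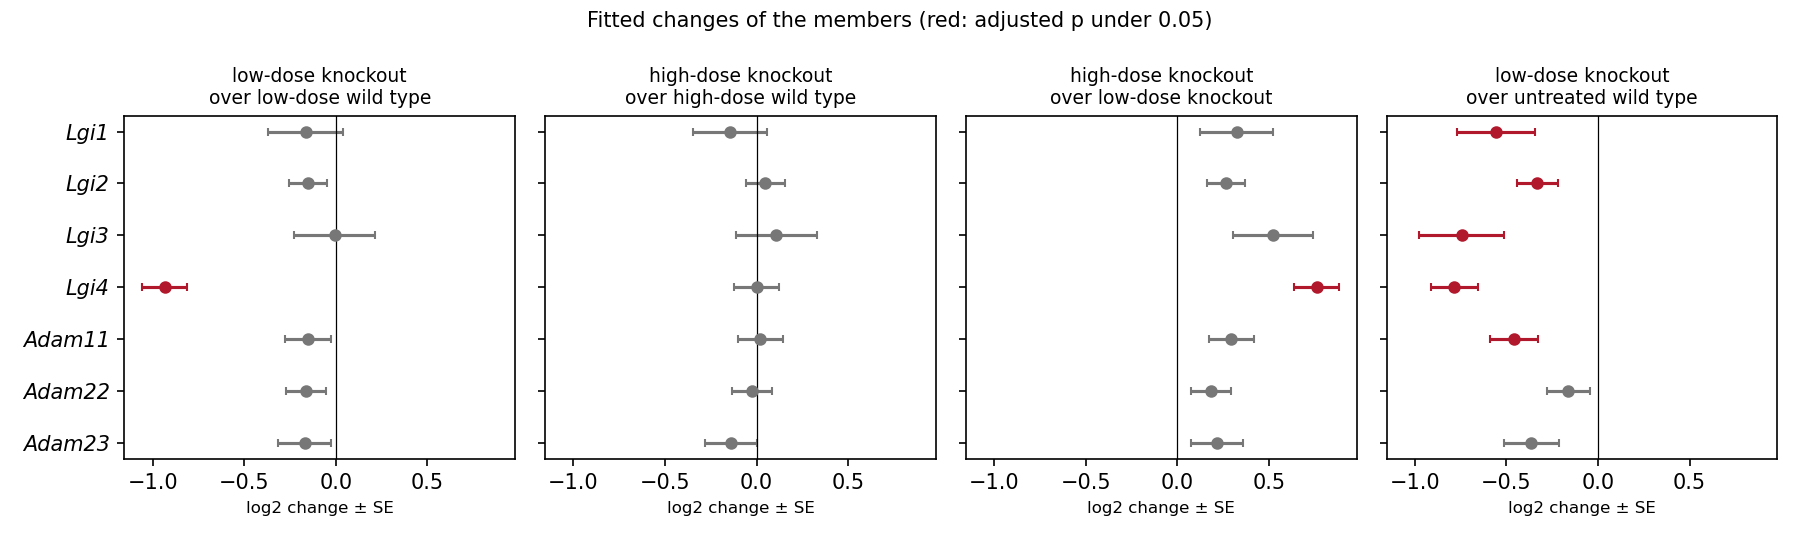
Fitted log2 changes (horizontal axis, ± SE) of the 7 genes in 4 comparisons, with red points for an adjusted p under 0.05. Lgi4 is the single red point at −0.93 for knockouts over wild types at the low dose and at 0.76 for high-dose over low-dose knockouts, no gene is red for knockouts over wild types at the high dose, and 5 genes are red and below 0 in low-dose knockouts over untreated wild types.

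The question of Lgi1 and Lgi3, named neuronal beforehand, against Lgi4, named glial, was put to the difference of log2 levels on the same array. A single such difference compares 2 probes and has no meaningful zero, so only its shift between groups is read. The names are background that these arrays do not settle. Within groups Lgi3 correlated with GABAergic neuron markers (r = 0.809) and also with oligodendrocyte and myelin markers (r = 0.589). For Lgi4 the r with oligodendrocyte and myelin markers was 0.322. At the low dose Lgi1 minus Lgi4 averaged 0.13 ± 0.35 (SD, n = 10) in knockouts and −0.62 ± 0.61 (SD, n = 11) in wild types. Lgi1 thus shifted up relative to Lgi4 by 0.75 (two-sided permutation test, p = 0.00348, 0.0278 adjusted over 8 tests), with the same sign on 6 of 6 chips. Lgi3 relative to Lgi4 shifted up by 0.90 in the same comparison (permutation p = 0.0115, adjusted 0.0307), also on 6 of 6 chips. Neither ligand rose itself, with fitted changes of −0.16 for Lgi1 and −0.0045 for Lgi3 beside −0.93 for Lgi4. Both shifts thus largely restate the Lgi4 fall already called on these arrays and are no separate finding on Lgi1 or Lgi3. With an offset of 50 in the background correction the Lgi3 shift was 0.70 and its adjusted permutation p was 0.0621.

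From untreated to low-dose wild types the shift ran the other way for Lgi3, by −0.90 (exact permutation test, two-sided, p = 0.009, adjusted 0.0307), with the same sign on 5 of 6 chips. There the means were 1.53 ± 0.38 (SD, n = 9) in untreated and 0.63 ± 0.86 (SD, n = 11) in low-dose wild types. The fitted changes were −0.74 for Lgi3, which was not called (adjusted p = 0.195, limma), and 0.15 for Lgi4. This shift thus largely restates that uncalled Lgi3 change. The same low-dose wild types enter the opposite shift between the low-dose genotypes, so these shifts are not independent. Lgi1 shifted by −0.55 in that comparison (exact permutation p = 0.0452, adjusted 0.0904). Between the genotypes at the high dose the shifts were −0.15 for Lgi1 and 0.11 for Lgi3 (adjusted permutation p = 0.616 for both). From low-dose to high-dose knockouts they were −0.45 for Lgi1 (adjusted permutation p = 0.139) and −0.29 for Lgi3 (adjusted 0.323). The groups overlap in all 8 comparisons.

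**Figure D4:**
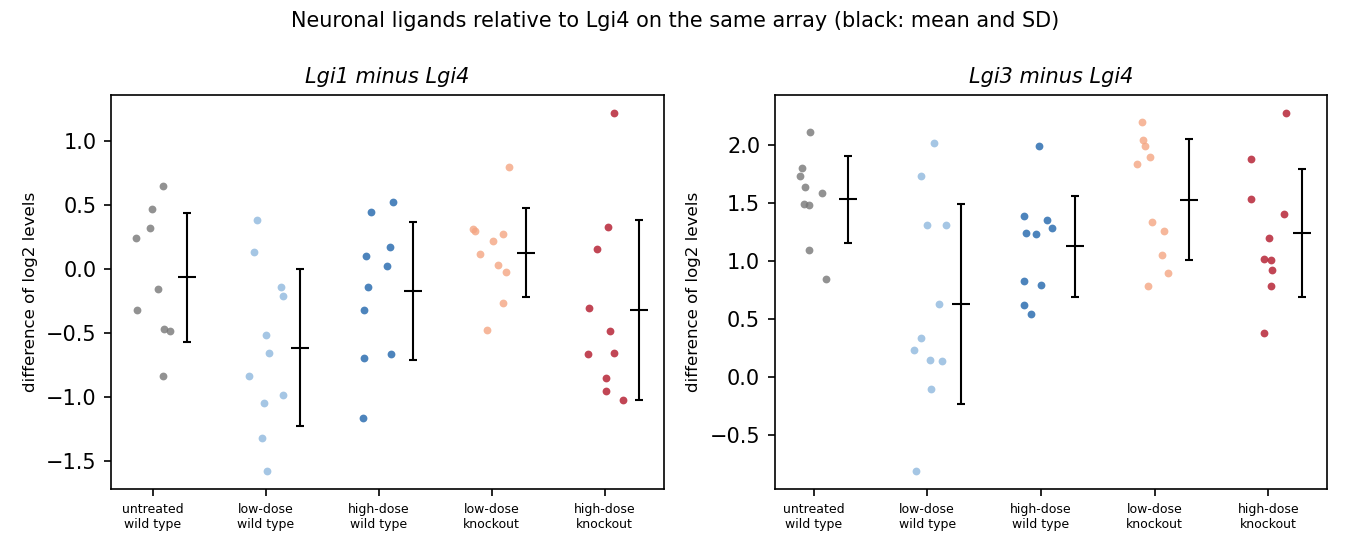
Difference of log2 levels on the same array (vertical axis) for Lgi1 minus Lgi4 and Lgi3 minus Lgi4 by group, with 1 point per mouse and black bars for the mean and SD. Low-dose wild types have the lowest means, −0.62 and 0.63, and low-dose knockouts lie at 0.13 and 1.53.

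Within the groups, Lgi1, Lgi2 and Lgi3 moved together from mouse to mouse, while no relation of Lgi4 with them passed the test over all 50 arrays. These relations were computed after the values had been seen, on deviations from the group means over 50 arrays, as 31 relations in 1 family. Lgi1 and Lgi3 correlated at r = 0.731 and rho = 0.756 (permutation p = 1e-05 for both, the smallest possible; adjusted 3.87e-05 and 6.2e-05). Without the 2 arrays farthest in Lgi1 r was 0.71, within groups it ran from 0.537 to 0.839, and within the 6 larger chips from 0.752 to 0.903. Lgi1 with Lgi2 had r = 0.635 (rho = 0.643; permutation p = 1e-05 for both; adjusted 3.87e-05 and 6.2e-05; r = 0.566 without the 2 farthest; 0.425 to 0.899 within chips). Lgi2 with Lgi3 had r = 0.641 (rho = 0.658; permutation p = 2e-05 for both; adjusted 6.89e-05 and 0.000103; r = 0.626 without the 2 farthest; 0.251 to 0.785 within chips). Lgi1 with Lgi4 had r = −0.06 (rho = −0.04, permutation p = 0.657 and 0.796, adjusted 0.773 and 0.823), and within single groups from −0.449 to 0.608. Lgi3 with Lgi4 had r = 0.0907 (rho = 0.0924, permutation p = 0.533 and 0.523, adjusted 0.661 and 0.676). Its r ran within single groups from −0.444 to 0.636, and within chips from −0.64 to 0.561. The direction of these Lgi4 relations thus differed between groups, which the pooled r does not show.

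**Figure D5:**
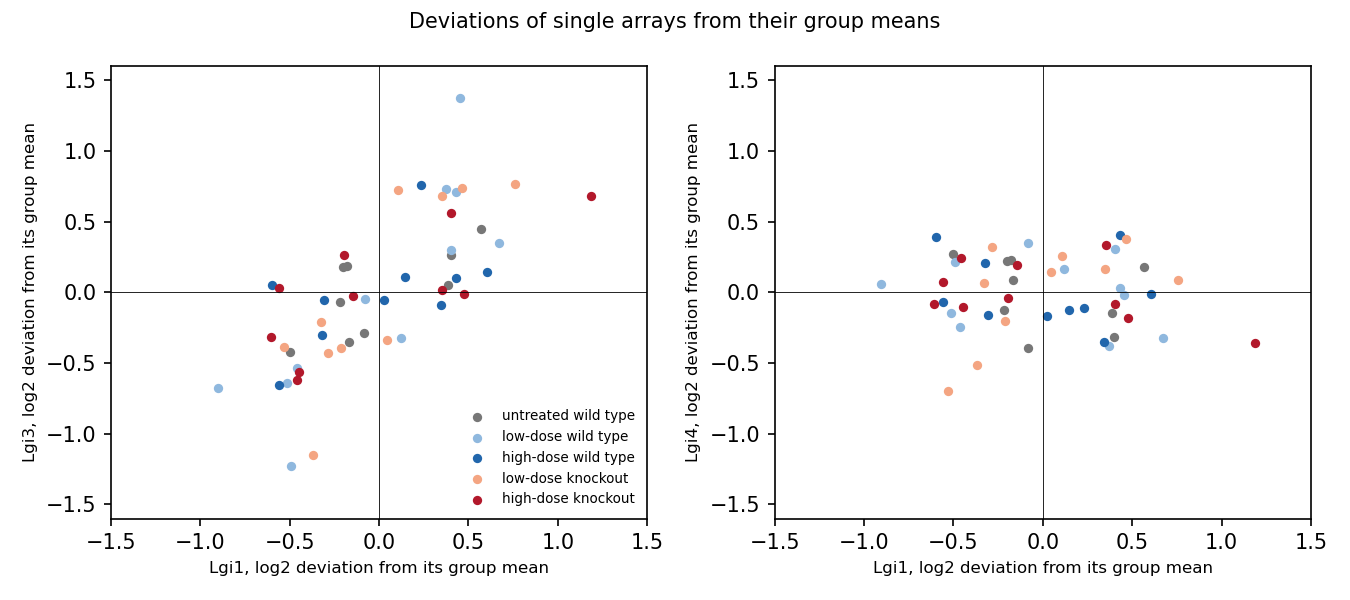
Deviation of each array from its group mean (log2) for Lgi1 on the horizontal axes against Lgi3 (left) and Lgi4 (right) on the vertical axes, with 1 point per mouse coloured by group. The points rise together for Lgi3 (r = 0.731) and have no common direction over all groups for Lgi4 (r = −0.06).

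Likeness was measured as the Pearson correlation of chip-adjusted log2 levels over the 50 arrays, and genes among the 3 closest to each member are named. For Lgi1 they included Scg2, a granin of secretory granules (r = 0.956), and App, the amyloid precursor protein (r = 0.949). For Lgi3 they were the neuropeptide precursor Vgf (r = 0.927), the adenylate cyclase Adcy9 (r = 0.922) and the neuronal glucose transporter Slc2a3 (r = 0.919). For Lgi2 they were Vstm2b, the synaptic vesicle protein Syt1 and Tmem94 (r = 0.798 to 0.801). For Lgi4 they were the small heat shock protein Cryab (r = 0.778), the kinase Dclk3 (r = 0.777) and the ubiquitin ligase Trim37 (r = 0.773). Adam11 came close to Creld1 (r = 0.859) and Chst1 (r = 0.846), Adam22 to Snx11, Mier2 and Nsmf (r = 0.631 to 0.714), and Adam23 to Gpr158, Slc2a13 and Ptprd (r = 0.828 to 0.84). These arrays share their groups, so group differences enter each r.

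The partners of the LGI complex were read from lists chosen with earlier results of these data known. Of all tested probes, 21.1% were called between the genotypes at the low dose and 20.3% between the knockout doses. In low-dose knockouts against untreated wild types 32.5% were called, and the list counts are to be read beside these shares. Of the MAGUK scaffolds and adaptors, 6 of 10 listed genes were tested. At the low dose 3 of these 6 fell in knockouts against wild types, namely Lin7b (−0.60 ± 0.10, SE; adjusted p = 1.84e-05), Dlg4 itself (−0.51 ± 0.13; adjusted p = 0.00361) and the related scaffold Dlg3 (−0.42 ± 0.11; adjusted p = 0.00459). From low-dose to high-dose knockouts the same 3 genes rose, by 0.39, 0.42 and 0.45, and the kinase-like scaffold Cask fell by 0.31. Of the Kv1 channels and beta subunits, 4 of 8 were tested and 3 fell at the low dose, the beta subunits Kcnab2 (−0.53 ± 0.14; adjusted p = 0.00405) and Kcnab1 (−0.33 ± 0.09; adjusted p = 0.00744) and the channel Kcna2 (−0.38 ± 0.13; adjusted p = 0.0273). Kcnab2 and Kcnab1 rose by 0.68 and 0.41 from low-dose to high-dose knockouts. The median change at the low dose was −0.23 for the scaffolds and −0.36 for the Kv1 list beside 0.00 for all probes.

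Of the AMPA receptors and their TARP subunits, 8 of 10 were tested, and 1 fell in knockouts at the low dose, the TARP Cacng2 (−0.39 ± 0.14, SE; adjusted p = 0.0452). Against untreated wild types 3 of 8 were lower in low-dose knockouts, Cacng2 (−0.65), Gria2 (−1.0) and Gria1 (−0.75). That share is near the 32.5% of all probes called in the same comparison. Among the adhesion partners of the juxtaparanode and axon, 5 of 8 were tested. At the low dose 1 of 5 fell in knockouts, the membrane skeleton protein Epb41l3 (−0.40 ± 0.12, adjusted p = 0.0129). Against untreated wild types 4 of 5 were lower in low-dose knockouts, including the neurexin Nrxn3 (−1.17) and Cntnap2 (−0.49), a partner of Kv1 channels. Of other ADAM proteases of the brain, 5 of 8 were tested, and 1 was called at the low dose and between the knockout doses. It was Adam19, which fell at the low dose (−0.48 ± 0.15, adjusted p = 0.0162) and rose by 0.55 from low-dose to high-dose knockouts. The single calls of Adam19, and of Cacng2 and Epb41l3 at the low dose, are near or under the shares of all probes (21.1% and 20.3%).

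Marker genes of the cell types moved in the same comparisons, where 32.5% of all probes were called in low-dose knockouts against untreated wild types. Neuronal markers such as Slc17a7 and Gad1 were above background on all 50 arrays, and so were 10 of 10 astrocyte and 10 of 10 microglial markers. Neurod6, Camk4 and Gad2 were among those that missed the filter on low signal. In low-dose knockouts against untreated wild types, 7 of 7 tested GABAergic and 4 of 5 tested glutamatergic neuron markers fell and 6 of 10 astrocyte markers rose, with list medians of −0.74, −0.86 and 0.48 beside 0.01 for all probes. In that comparison 3 of 10 microglial markers rose and 1 fell, 0 of 5 tested endothelial and mural markers were called, and of the red blood cell markers the 1 tested, Hba-a1, fell by 1.06. Of the oligodendrocyte and myelin markers 5 of 9 tested were lower and 0 higher, with a list median of −0.35, and of the precursor markers 1 of 5 was lower, Gpr17 (−0.88 ± 0.14, SE; adjusted p = 5.97e-06). The lower myelin markers were Opalin (−1.23), Mag (−0.85), Mobp (−0.55), Cldn11 (−0.46) and Mbp (−0.35), and the mean level of that list ranged from 8.20 to 9.54 in low-dose knockouts and from 9.43 to 9.86 in untreated wild types. The mean log2 level of the GABAergic list ranged from 7.01 to 7.96 in low-dose knockouts and from 7.67 to 8.79 in untreated wild types, and that of the glutamatergic list from 7.48 to 8.40 and from 8.21 to 8.94. In bulk samples fewer terminals or cells of a type and less RNA in each cannot be told apart. Within groups Lgi3 correlated with the mean of the GABAergic markers at r = 0.809 (rho = 0.785; permutation p = 1e-05 for both; adjusted 3.87e-05 and 6.2e-05; r = 0.769 without the 2 farthest arrays; 0.716 to 0.9 within chips). Lgi1 correlated with the glutamatergic markers at r = 0.796 (rho = 0.802; permutation p = 1e-05 for both; adjusted 3.87e-05 and 6.2e-05; r = 0.779 without the 2 farthest; 0.779 to 0.965 within chips). The other pairings of Lgi1 and Lgi3 with these 2 lists also passed the test (r = 0.597 for Lgi1 with GABAergic and 0.763 for Lgi3 with glutamatergic markers).

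Relations with glial lists passed the test for Lgi1 and Lgi3 as well. Lgi3 correlated with the oligodendrocyte and myelin markers at r = 0.589 (rho = 0.533; permutation p = 1e-05 and 0.00016; adjusted 3.87e-05 and 0.000496; r = 0.59 without the 2 farthest arrays; 0.0174 to 0.82 within chips), and Lgi1 with that list at r = 0.277 (adjusted permutation p = 0.0969). With the microglial markers the correlation was negative, at r = −0.60 for Lgi3 and −0.54 for Lgi1 (adjusted permutation p = 3.87e-05 and 0.000279). It was also negative with the astrocyte markers, at r = −0.43 for Lgi3 and −0.40 for Lgi1 (adjusted permutation p = 0.00482 and 0.00976). Lgi3 with the endothelial and mural markers had r = 0.362 (adjusted permutation p = 0.0241, 0.0695 for rho) and 0.207 without the 2 farthest arrays. The r pooled over all groups thus depends on those arrays, and within single groups it ran from −0.0359 to 0.751. The part of all these markers in the changes of Lgi1, Lgi2, Lgi3, Lgi4 and Adam11 was not tested.

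Neuronal and glial lists both changed in the low-dose comparison of genotypes, in which Lgi4 was called. Of the tested neuron markers, 3 of 5 glutamatergic and 2 of 7 GABAergic fell in knockouts, with list medians of −0.47 and −0.35. There 2 of 9 tested oligodendrocyte and myelin markers fell, Opalin (−0.91 ± 0.20, SE; adjusted p = 0.000694) and Mobp (−0.53 ± 0.17; adjusted p = 0.0169), with a list median of −0.11; that share is near the 21.1% of all probes called in this comparison. Of the precursor markers 2 of 5 tested fell, Gpr17 (−0.73 ± 0.14; adjusted p = 8.03e-05) and Olig1 (−0.29 ± 0.10; adjusted p = 0.0255). Among 10 astrocyte markers 3 rose and 2 fell, with Acsbg1 at 0.48 and Gfap at −0.71, and among 10 microglial markers 2 fell. From low-dose to high-dose knockouts 1 of 9 oligodendrocyte and myelin markers was called higher, Opalin (1.27), and 1 of 5 precursor markers, Gpr17 (0.64). Neither share exceeded the 20.3% of all probes called in that comparison. The mean level of the oligodendrocyte list ranged from 8.20 to 9.54 in low-dose knockouts and from 9.19 to 9.61 in low-dose wild types, which overlap. On deviations from the group means, Lgi4 and that list had r = 0.322 (rho = 0.244, permutation p = 0.0212 and 0.0891, adjusted 0.0469 and 0.153). It dropped to 0.152 without the 2 arrays farthest in Lgi4, so the r pooled over all groups depends on those arrays. Within single groups r ran from −0.216 to 0.786, so the pooled value does not describe each group. The part of neurons, oligodendrocytes or other cell types in the Lgi4 change was not tested.

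Median signals of the arrays ranged from 54.1 to 78.0, and 10118 to 12052 probes were above background. Correlations between arrays ran from 0.913 to 0.99, and no 2 arrays were identical. The Sod2 probe had mean log2 levels of 9.68 to 9.87 in the wild-type groups, 10.2 in low-dose and 10.1 in high-dose knockouts. No source used here gives its place relative to the deleted part of the gene, so it does not check the labels, by which all groups are named. Within groups no ligand correlated with the median signal of its array past the adjusted threshold.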

How the data were processed

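Per the labels, RNA from synaptosomes was extracted with Trizol, amplified in 1 round, biotin-labelled and hybridized to Illumina bead arrays, 1 per mouse. Per the file headers, the deposited table holds the average bead signal, an intensity with no scaling or background subtraction visible in its values; no source used here names the software. The authors' deposited processed values lie on a log2 scale with column medians of 6.02 to 6.03 and follow the log2 signal at r = 0.9985 to 1; their method is unknown, and they served as an alternative.

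In limma 3.58.1 (R 4.3.3), signals were background-corrected with normexp (offset 16), quantile-normalized and log2-transformed. A probe counted as above background where it exceeded the lower peak of its array by 1.645 SDs, which stands in for the detection p-value that was not used here, and probes above background on at least 9 of 50 arrays were tested. Groups and 7 chips were fixed terms, with moderated tests over 50 arrays and Benjamini-Hochberg adjustment over 13324 probes (called under 0.05). Quoted levels and fold changes are on this scale, whose offset understates changes of dim probes. The spread is between mice, and the number of arrays limits the precision. Scripts were tested on simulated data. Permutation tests used scipy 1.17.1 with 1e+05 resamples or exact enumeration.

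The 7 genes, the lists and the tests were chosen with earlier results of these data known. Named were all members (other probes where they disagree in direction), at most 4 called genes with the smallest p of each list and comparison, and the 3 genes most alike to each member among symbols of the reference table; some genes that this rule names are not reported here. The Lgi1 second probe, which agreed in direction, the correlations and the motifs were added after values were seen. Older symbols of 7082 probes were updated for the lists through the RefSeq table. Alternatives covered chip handling, background, offset, scaling, the filter, the probe, dim arrays and single arrays.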

Additional observations from a re-analysis of the deposited data

Results flagged for a closer look

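The knockout effect on Lgi4 differed between the doses by 0.936 on the log2 scale (SE 0.173, adjusted p = 0.000725, limma interaction), with fitted changes of −0.93 in mice given the low dose and 0.00 in those given the high dose. The 11 alternatives other than single arrays that gave a value put it between 0.71 and 0.94, and leaving out single arrays between 0.87 and 1.00, all past the threshold.

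Adam22 in low-dose knockout replicate 31 had a log2 level of 4.65, and the next lowest mouse of its group stood at 5.16. The gap was 0.481 of the range of the group. This was the 1 array that stood apart among 28 groups of 9 or 10 arrays examined over the 7 genes, where chance gives about 1 in 20.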

How the results depend on the processing

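The 5 calls of Lgi4 in single comparisons (knockouts over wild types at the low dose, the interaction, high-dose over low-dose knockouts, and low-dose knockouts over untreated and over high-dose wild types) kept their direction and threshold under all 11 processing alternatives and with each single array left out. The F test over the 5 groups called 2 to 4 members, both over the alternatives and over single arrays left out, and Lgi4 was among them in each. The count of called members in high-dose over low-dose knockouts was 3 without the 5 dimmest arrays (Lgi2 and Adam11 joined, with adjusted p-values of 0.0221 and 0.0145) and 2 with the probe under the older name of Adam23, an alternative chosen after seeing the data. With that probe, low-dose knockouts over high-dose wild types also counted 2, and low-dose knockouts over untreated wild types 6. Over single arrays left out, both the count for high-dose over low-dose knockouts and that for low-dose knockouts over high-dose wild types ranged from 1 to 3, with 3 reached in the first without high-dose knockout replicate 9 and in both without low-dose knockout replicate 22 or 24. In low-dose knockouts over untreated wild types 4 to 6 members were called, with the lower limit where Lgi1 was lost (adjusted p of 0.0562 without the filter, 0.0535 with the authors' processed values, 0.0581 without the dimmest arrays, and up to 0.0882 without single arrays), and Lgi2, Lgi3 and Adam11 stayed called throughout. With an offset of 50 the shift of Lgi3 relative to Lgi4 at the low dose was 0.697 (adjusted permutation p = 0.0621), and within chips the shift of Lgi1 relative to Lgi4 at the high dose averaged 0.09; the cause was not tested.

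Signs changed only where no value was called, in 28 of 869 fits of processing alternatives and 122 of 3850 fits without 1 array, over 77 pairs of member and comparison, and no value whose sign changed exceeded 0.163 in size. Among printed values, Lgi4 in knockouts over wild types at the high dose was −0.076 with median scaling, −0.001 without the dimmest arrays and −0.021 with only the arrays compared (−0.036 to 0.048 without single arrays). Median scaling also gave −0.049 for Lgi4 in low-dose over untreated wild types and −0.014 for the Lgi1 interaction (−0.078 to 0.118 without single arrays), and the next Adam22 probe gave 0.022 in knockouts over wild types at the low dose. Without single arrays Lgi3 ranged from −0.106 to 0.118 in that comparison and from −0.009 to 0.21 in the interaction. No paired analysis was possible because the replicate numbers of the labels are unique to each mouse. Dim signal limits Adam22 and Adam23 most, which were above background on 46 and 32 of 50 arrays.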
